A study of Mus musculus with 16 samples.

Results

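The ADAMTS proteases and ADAMTS-like proteins described here are 10 genes, chosen by symbol from the 24982 entries of a gene count table of mouse heart: the proteases Adamts1, Adamts2, Adamts4, Adamts5, Adamts9, Adamts10, Adamts12 and Adamts15, and the ADAMTS-like genes Adamtsl2 and Adamtsl4. The rule names symbols and uses no measured value, but the members were chosen with earlier results of these data known. The table holds 24 entries with an Adamts or Adamtsl symbol, and all 10 members were found and passed the filter on low counts. Total RNA of the left ventricle was sequenced from 16 C57BL/6 mice, 1 library per mouse. The knockout group was 8 mice (4 males and 4 females) labelled as Tln2-null with a knockout of Tln1 specific to CF, the abbreviation under which the series title places cardiac fibroblasts. The Tln2-null group was 8 mice (4 males and 4 females) without that deletion. Tln1 and Tln2 encode talins, the adaptors that couple integrins to the actin cytoskeleton. Every mouse of both groups was given tamoxifen by intraperitoneal injection for 5 days and, after 2 weeks, angiotensin II (AngII), a peptide hormone that raises blood pressure, from an osmotic pump for 8 weeks. The sources used here do not name the Cre line, the flanked part of Tln1 or the ages. No wild-type mice and no mice without AngII are among these samples, so the values below describe AngII-treated hearts on a Tln2-null background.

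ADAMTS proteases are secreted zinc metalloproteases that carry thrombospondin repeats and act on extracellular matrix. ADAMTS1, ADAMTS4, ADAMTS5, ADAMTS9 and ADAMTS15 cleave the hyaluronan-binding proteoglycans versican and aggrecan, ADAMTS2 removes the N-propeptide of fibrillar procollagens, and ADAMTS12 can cleave COMP. ADAMTS10 and the ADAMTS-like proteins, which have no protease domain, bind fibrillin microfibrils. In the heart versican is cleared by ADAMTS proteases as valves and the ventricular wall mature, and in human genetics ADAMTS10 and ADAMTSL2 are mutated in short-stature syndromes of the fibrillin group, some with valve thickening.

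The protease domain separates the members into classes that can be read from the coding sequence. The zinc-binding signature is shown because it tells proteases from ADAMTS-like proteins. Per GENCODE M21 (GRCm38) all 8 proteases had a coding transcript with it, and Adamtsl2 (0 of 1) and Adamtsl4 (0 of 3) had none. It was in 1 of 2 coding transcripts of Adamts9, in 1 of 3 of Adamts10 and in all those of the other proteases. The longest transcript with the signature was used for each protease. The search pattern was 11 codons: histidine and glutamate, any pair, histidine, any pair, glycine or asparagine, any pair, and histidine. In the lines below, which run 5′ to 3′ on the coding strand, capitals mark the histidine and glutamate codons and the eighth codon.
Adamts1: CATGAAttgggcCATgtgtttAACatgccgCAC
Adamts4: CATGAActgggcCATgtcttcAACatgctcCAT
Adamts9: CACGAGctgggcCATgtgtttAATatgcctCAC
Adamts15: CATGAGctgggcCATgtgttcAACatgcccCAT
Adamts5: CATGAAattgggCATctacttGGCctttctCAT
Adamts2: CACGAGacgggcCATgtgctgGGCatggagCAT
Adamts10: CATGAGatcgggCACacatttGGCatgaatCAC
Adamts12: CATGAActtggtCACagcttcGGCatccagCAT
The eighth codon was for asparagine in Adamts1, Adamts4, Adamts9 and Adamts15 and for glycine in Adamts2, Adamts5, Adamts10 and Adamts12. The pattern was widened to allow asparagine after a search with glycine alone had missed the first set. Among the 28 pairs of proteases, Adamts4 and Adamts15 shared the most of the 33 bases (30), and Adamts9 and Adamts12 the fewest (17). Every one of the 8 signatures was split by an intron, after 10 bases in Adamts1, Adamts4, Adamts5 and Adamts15 and after 17 bases in Adamts2, Adamts9, Adamts10 and Adamts12. With that intron included, the signature lay at chr16:85799191-85799545 on the minus strand (Adamts1), chr1:171253210-171253915 on the plus strand (Adamts4), chr6:92905285-92908493 on the minus strand (Adamts9) and chr9:30911255-30911690 on the minus strand (Adamts15). The others lay at chr16:85878015-85887826 on the minus strand (Adamts5), chr11:50775403-50776134 on the plus strand (Adamts2), chr17:33538157-33538279 on the plus strand (Adamts10) and chr15:11241529-11255564 on the plus strand (Adamts12). Adamts1 (chr16:85793827-85803113) and Adamts5 (chr16:85856173-85901828) lie on the same strand of chromosome 16, and the ADAMTS-like genes Adamtsl2 (chr2:27079379-27108981, plus strand) and Adamtsl4 (chr3:95676201-95687917, minus strand) lie elsewhere.

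Libraries held 11161766 to 19221673 counts each, and a count of 3 corresponded to between 0.151 and 0.268 counts per 1000000 counts (CPM). Tln1, the targeted gene, had a lowest, median and highest level of 220.9, 279.5 and 322.8 CPM in knockout hearts, against 250.7, 289.0 and 322.4 CPM in Tln2-null hearts (log2 fold change -0.08 ± 0.07 SE, adjusted p 0.942). The groups overlapped, and a level in whole ventricle covers every cell type, targeted or not. Tln2 was read at 67.1 ± 2.32 CPM in knockout hearts and 66.8 ± 7.25 CPM in Tln2-null hearts (mean ± SD, n = 8 each), and the sources used here do not say which part of the gene the null allele lacks. Ventricular markers were high, and the atrial markers Myl7 and Sln had 43 and 5 counts over all 16 libraries. Of the atrial list only Nppa, which ventricles under load also express, and Myl4 were tested; their summed level was 291.9 to 1234 CPM in knockout hearts (median 767) and 423.4 to 1906 CPM in Tln2-null hearts (median 1110), both fold changes were below 0 and neither had an unadjusted p under 0.05 (0.0991 for Nppa, 0.173 for Myl4). Its part in the members' values was not tested. Some libraries stood apart. The clock gene Arntl was at 27.1 CPM in knockout replicate 8 and 28.4 CPM in Tln2-null replicate 8, against 3.66 to 8.44 CPM in the other 14, and the stress genes Hspa1a (85.9 CPM) and Atf3 (89.6 CPM) were highest in Tln2-null replicate 5. Of the 8 females, 4 had summed Y-linked reads above 1% of the male mean: knockout replicates 3, 5 and 7 (2.43%, 2.88% and 1.11%) and Tln2-null replicate 4 (1.51%), called the Y-read females below. Values without the replicate 8 libraries or without the 4 females, computed after the data were seen for the gene lists and summed levels, stand beside the results they move most.

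Per kilobase of merged exon, Adamtsl4 and Adamts1 were the most abundant members and Adamts12 and Adamts4 the least. Over the 16 hearts Adamtsl4 averaged 16.9 ± 3.84 CPM per kb and Adamts1, a protease of versican and aggrecan, 12.5 ± 3.17 CPM per kb (SD). A middle set followed, with Adamts10 at 4.97 ± 1.11, Adamts2 at 4.37 ± 1.39, Adamtsl2 at 4.10 ± 1.77 and Adamts5 at 3.42 ± 0.391 CPM per kb. Adamts9 averaged 1.56 ± 0.366 and Adamts15 1.40 ± 0.46 CPM per kb, and Adamts12 and Adamts4 were at 0.293 ± 0.114 and 0.253 ± 0.248 CPM per kb. The order had 3 steps without overlap between hearts: Adamts1 was above Adamts10, Adamts5 above Adamts9 and Adamts15 above Adamts12 in 16 of 16 hearts. These steps depend on merged exon length, and which transcripts the hearts express was not assessed. Merged exons spanned 10791 bases for Adamts5 and 15048 bases for Adamts9. In CPM these genes overlapped, at 29.6 to 45.7 for Adamts5 and 16.7 to 37.0 for Adamts9. Neighbours elsewhere in the order overlapped. Adamtsl4 was above Adamts1 in 12 of 16 hearts, and Adamts10 was above Adamts2 in 13, Adamts2 above Adamtsl2 in 10, Adamtsl2 above Adamts5 in 10, Adamts9 above Adamts15 in 10 and Adamts12 above Adamts4 in 13. The aggrecan- and versican-cleaving proteases therefore span the whole order, from Adamts1 near the top to Adamts4 at the bottom.

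**Figure D1:**
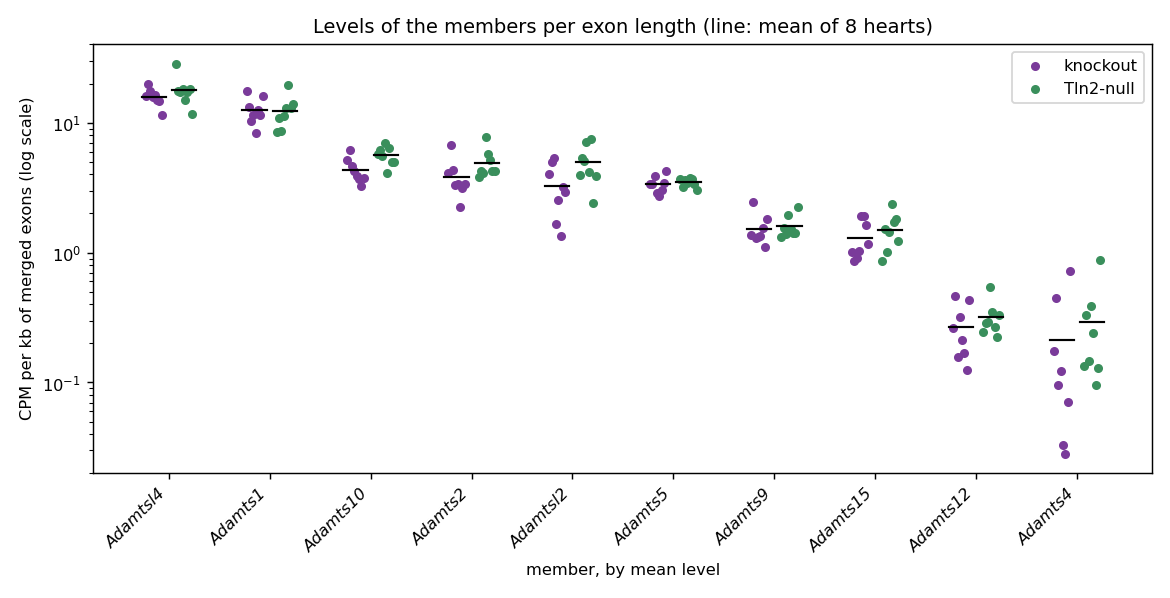
Level of each member in CPM per kb of merged exon (log scale), with 1 point per heart, knockout hearts left of Tln2-null hearts, and a line at the mean of 8 hearts. By this measure, which depends on merged exon length, the members fall into steps. Adamtsl4 and Adamts1 are on top, Adamts10, Adamts2, Adamtsl2 and Adamts5 next, then Adamts9 and Adamts15, and Adamts12 and Adamts4 lowest.

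The genotype comparison asks what deletion of Tln1 in cardiac fibroblasts, on top of the loss of Tln2, does to these transcripts under AngII. No member passed edgeR's quasi-likelihood test at an adjusted p under 0.05 (0 of 10), and no gene of the 13775 tested did (0%). At an unadjusted p under 0.05 the test took 3 of 10 members (Adamts2, Adamts10 and Adamtsl2), against 5.08% of all genes tested (700 genes). All 3 had a log2 fold change below 0, which together with such a p held for 3.17% of all genes (436 genes). The fold change was below 0 in 9 of 10 members, against 51.2% of all genes (7052 genes), and the median member was at -0.22 on the log2 scale, against 0 for all genes. Because the members were chosen with earlier results of these data known, these shares describe them and test nothing about the family. DESeq2 called 17 genes and limma-voom 11 genes in the same comparison, with no member among them (0 by either tool). The number in the sample title ran from 1 to 14 in Tln2-null hearts and from 3 to 18 in knockout hearts. With it as a covariate in edgeR the log2 fold change was -0.29 for Adamts2 (unadjusted p 0.0844), -0.26 for Adamts10 (unadjusted p 0.00891) and -0.46 for Adamtsl2 (unadjusted p 0.0314). Without it the values were -0.37, -0.37 and -0.61. The counts depended on the libraries kept. Without the 4 females with Y-linked reads 6 of 10 members had a fold change below 0. The 1 knockout female left there is replicate 2, the highest knockout heart for Adamts2, Adamts9, Adamts10, Adamts12 and Adamtsl4. Without replicate 2 alone the fold changes of Adamts2 and Adamts10 were farther from 0, at -0.51 and -0.44. In that setting the Y-linked reads and the weight of replicate 2 cannot be told apart.

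**Figure D2:**
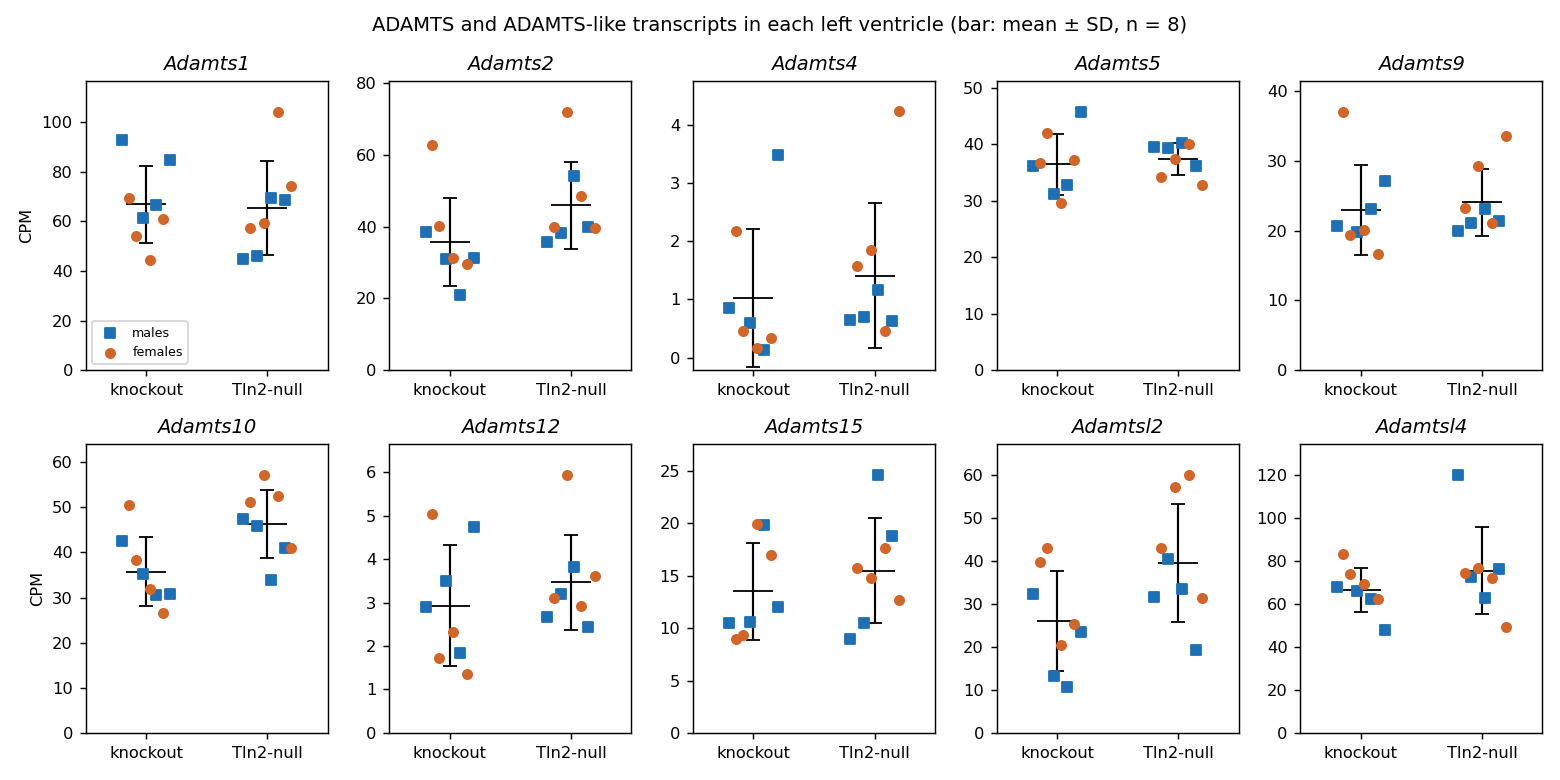
Level of each member in CPM in each heart, knockout left of Tln2-null, with males as squares, females as circles, and the mean ± SD of 8 hearts in black. The genotypes overlap for all 10 members; for Adamts10, 4 knockout hearts lie below every Tln2-null heart and 3 Tln2-null hearts above every knockout heart.

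Adamts2, the procollagen N-proteinase, had a lowest, median and highest level of 21.1, 31.3 and 62.6 CPM in knockout hearts and 35.6, 39.9 and 71.9 CPM in Tln2-null hearts. Its log2 fold change was -0.37 ± 0.17 SE (unadjusted p 0.0408, adjusted p 0.935). Of the 8 knockout hearts, 7 lay below the Tln2-null mean and 5 below every Tln2-null heart; the exception, knockout replicate 2, had the second highest level of all hearts. The unadjusted p was above 0.05 when any of 9 single libraries was left out, and reached 0.115 without Tln2-null replicate 4. Without the 4 Y-read females the fold change was -0.15 on the log2 scale, and without knockout replicate 2 it was -0.51.

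Among the fibrillin-associated members, Adamts10 ranged from 26.6 over a median of 33.5 to 50.4 CPM in knockout hearts and from 33.9 over 46.7 to 57.2 CPM in Tln2-null hearts. The log2 fold change was -0.37 ± 0.12 SE (unadjusted p 0.00644, adjusted p 0.755), rank 115 of all genes by p. Of the 8 knockout hearts 7 lay below the Tln2-null mean and 4 below every Tln2-null heart, and 3 Tln2-null hearts lay above every knockout heart. Leaving out the 4 females brought the fold change of Adamts10 to -0.18, and leaving out knockout replicate 2 brought it to -0.44. Adamtsl2, a secreted glycoprotein that binds latent TGF-beta binding protein, had 10.7, 24.4 and 43.1 CPM as the lowest, median and highest level in knockout hearts, against 19.4, 37.0 and 60.01 CPM in Tln2-null hearts. It had the lowest fold change of the members, -0.61 ± 0.22 SE on the log2 scale (unadjusted p 0.0129, adjusted p 0.833), a ratio of 0.653, and -0.51 (unadjusted p 0.0779) without the 4 females. The lowest levels were in the knockout males of replicates 4 and 6, and 6 of 8 knockout hearts lay below the Tln2-null mean. Adamtsl4, whose human counterpart is mutated in isolated lens dislocation, averaged 66.5 ± 10.2 CPM in knockout hearts and 75.3 ± 20.2 CPM in Tln2-null hearts (log2 fold change -0.18 ± 0.14 SE, adjusted p 0.942). Its highest level, 119.9 CPM in Tln2-null replicate 1, stood far above the next heart, at 83.2 CPM in knockout replicate 2.

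The 5 hyalectan-cleaving proteases had log2 fold changes between -0.42 and 0.02 by genotype. Adamts1 averaged 66.8 ± 15.7 CPM in knockout hearts and 65.5 ± 18.9 CPM in Tln2-null hearts, the only positive fold change among the 10 members (0.02 ± 0.17 SE on the log2 scale, adjusted p 0.995). The fold change of Adamts1 was 0.26 without the 4 Y-read females. Adamts5, the main aggrecanase of mouse cartilage, was the steadiest member, at 36.4 ± 5.44 CPM in knockout hearts and 37.5 ± 2.82 CPM in Tln2-null hearts (-0.04 ± 0.08 SE on the log2 scale, adjusted p 0.974). Its 95% interval, -0.2 to 0.12 on the log2 scale, was the narrowest of the 10 members. Adamts9 averaged 23.0 ± 6.44 CPM in knockout hearts and 24.0 ± 4.79 CPM in Tln2-null hearts (-0.06 ± 0.14 SE, adjusted p 0.976). Its fold change was 0.21 without the 4 Y-read females and -0.19 without knockout replicate 2. Adamts15 averaged 13.5 ± 4.65 CPM in knockout hearts and 15.5 ± 4.99 CPM in Tln2-null hearts (-0.20 ± 0.22 SE, adjusted p 0.946), with a fold change of -0.38 without the 4 Y-read females. For none of these 4 was a difference beyond the spread between hearts found. Adamts4, an inducible protease, was near the detection limit: 0.136, 0.528 and 3.48 CPM were its lowest, median and highest levels in knockout hearts, against 0.458, 0.932 and 4.24 CPM in Tln2-null hearts. Knockout replicates 5 and 6 held only 3 and 2 Adamts4 counts, and both maxima fell in the replicate 8 libraries that stood apart in Arntl. The fold change of Adamts4 was accordingly wide, -0.42 ± 0.59 SE on the log2 scale (adjusted p 0.962), with a 95% interval of -1.58 to 0.74; it was -0.75 without knockout replicate 2, -0.62 without both replicate 8 libraries, -1.03 without knockout replicate 8 alone, -0.02 without Tln2-null replicate 8 alone, and 0.42 once the 4 females with Y-linked reads were left out. Adamts12 had 1.37, 2.61 and 5.04 CPM as the lowest, median and highest level in knockout hearts and 2.45, 3.16 and 5.95 CPM in Tln2-null hearts. Its fold change was -0.24 ± 0.26 SE on the log2 scale (adjusted p 0.946), although 4 knockout hearts lay below every Tln2-null heart. It was 0.26 without those 4 females, -0.08 without Tln2-null replicate 4 alone, -0.43 without knockout replicate 2 and -0.36 without knockout replicate 8.

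**Figure D3:**
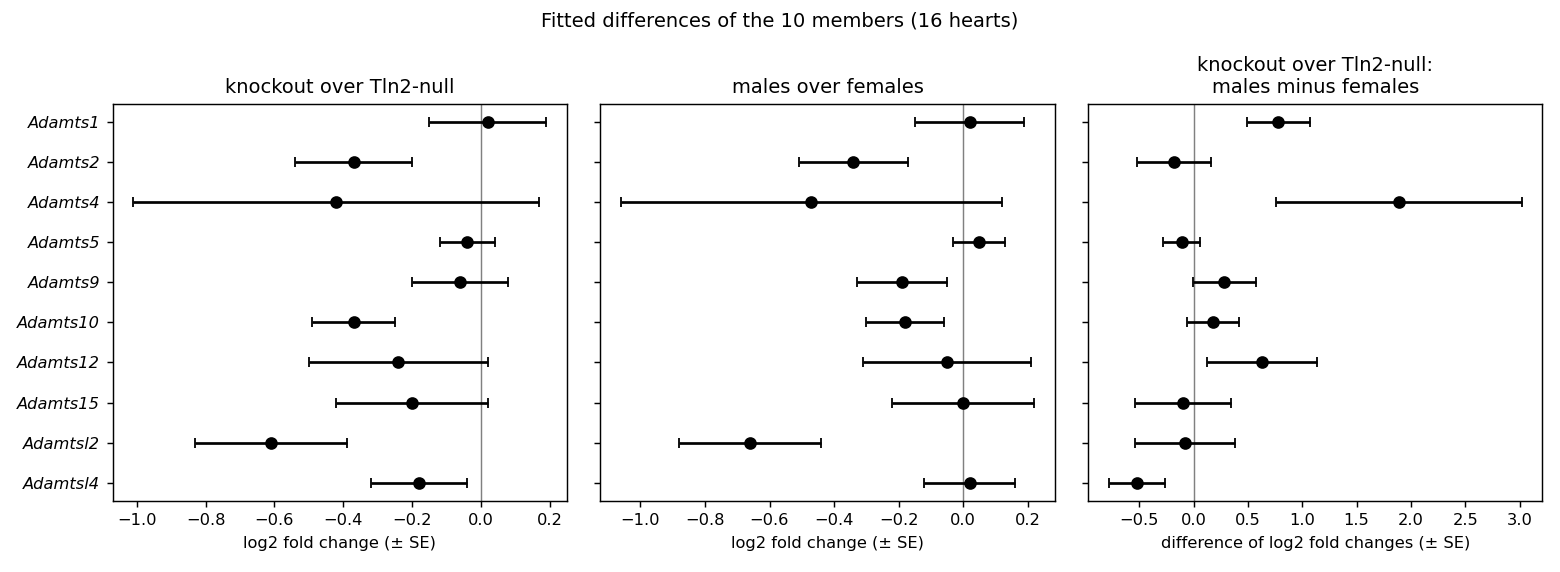
Log2 fold change ± SE of each member by genotype (knockout over Tln2-null), by sex (males over females), and the difference of the genotype fold change between the sexes (males minus females). By genotype 9 of 10 points lie below 0, none at an adjusted p under 0.05, and Adamts4 carries the widest bars in each panel.

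Fibroblast markers had fold changes of the same sign as most members. Of 9 activated fibroblast markers 8 had a fold change below 0 and 5 of them an unadjusted p under 0.05, and their summed level ranged from 136.9 over a median of 268.2 to 577.8 CPM in knockout hearts and from 198.9 over 406.4 to 826.0 CPM in Tln2-null hearts. The ninth, Fap, which encodes a fibroblast surface protease, averaged 9.74 CPM in knockout hearts and 8.10 CPM in Tln2-null hearts (0.27 ± 0.10 SE on the log2 scale, unadjusted p 0.0163, adjusted p 0.904). Without the 4 Y-read females 7 of the 9 were below 0, 1 of them at an unadjusted p under 0.05, and the median fold change of the list was -0.62, against -1.11 with all hearts; without both replicate 8 libraries 8 reached such a p. All 7 resting fibroblast markers had a fold change below 0, 6 of them at an unadjusted p under 0.05, with summed levels of 1783 to 2579 CPM in knockout hearts and 2251 to 3339 CPM in Tln2-null hearts. Their median fold change was -0.32, and -0.33 without the 4 Y-read females, where all 7 were still below 0. Without both replicate 8 libraries all 7 had such a p and 1 passed at an adjusted p under 0.05. The summed cardiomyocyte markers were at 37220 to 43840 CPM in knockout hearts and 37940 to 41980 CPM in Tln2-null hearts, with all 7 fold changes above 0. Their part in the members' values was not tested, and in bulk tissue fewer cells of a type and less RNA per cell cannot be told apart. Across the 16 hearts, Adamts2 followed the summed activated fibroblast markers with r = 0.84 (permutation p 4e-05, adjusted p 0.0012 over 30 relations examined after the data were seen; Spearman's rho 0.84, permutation p 0.00013). The correlation was 0.81 within knockout hearts, 0.83 within Tln2-null hearts, 0.80 without the 2 hearts farthest from the median of the sum, and 0.78 without the 4 females. Adamtsl2 followed them with r = 0.71 (permutation p 0.00214, adjusted p 0.0214; rho 0.69, permutation p 0.00378), with 0.82 within knockout hearts, 0.48 within Tln2-null hearts 0.56 without the 2 farthest hearts and 0.67 without the 4 females. Adamts10 did not pass there (r = 0.57, adjusted p 0.111; rho 0.55). With the summed resting fibroblast markers Adamts2 had r = 0.57 (permutation test, adjusted p 0.111) and rho 0.73 (permutation test, adjusted p 0.0201). Adamtsl2 had r = 0.60 (permutation test, adjusted p 0.105) and rho 0.57 with the same sum.

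The partners and substrates of each class were read beside it; none of these lists had a gene that passed in any direction. Of the hyalectans and hyaluronan partners, 6 of 13 listed genes were abundant enough to test, 4 had a fold change below 0 and none an unadjusted p under 0.05 (median -0.23 on the log2 scale; 0.02 without the 4 Y-read females, with 3 of 7 tested below 0). Vcan, the versican substrate of the proteoglycan-cleaving members, averaged 29.1 ± 9.39 CPM in knockout hearts and 35.9 ± 8.55 CPM in Tln2-null hearts (log2 fold change -0.30 ± 0.17 SE, adjusted p 0.935). Tnfaip6, a hyaluronan-binding protein, averaged 0.995 ± 0.525 CPM in knockout hearts and 1.44 ± 0.426 CPM in Tln2-null hearts, and the hyaluronan receptor gene Cd44 14.8 ± 3.88 CPM in knockout hearts and 16.8 ± 4.52 CPM in Tln2-null hearts. Brevican and neurocan (Bcan, Ncan) had 3 counts each over all libraries, so versican and aggrecan were the hyalectans left to describe.

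Of the fibrillar procollagens and their processing enzymes, 9 of 10 tested genes had a fold change below 0, 3 of them at an unadjusted p under 0.05 (median -0.28). Without the 4 Y-read females 9 of 10 were below 0 and none of these had such a p (0; median -0.09), and without both replicate 8 libraries 5 had. Col1a1, which encodes a substrate chain of Adamts2, averaged 97.9 ± 40.1 CPM in knockout hearts and 146.2 ± 39.5 CPM in Tln2-null hearts (-0.57 ± 0.21 SE, adjusted p 0.823), and Col1a2 195.7 ± 66.1 CPM in knockout hearts and 263.1 ± 68.8 CPM in Tln2-null hearts (-0.43 ± 0.18 SE, adjusted p 0.926). Adamts2 and its collagen substrates thus had fold changes of the same sign. The exception, Tll2, a tolloid-like protease of the BMP1 family, averaged 1.45 ± 0.741 CPM in knockout hearts and 0.637 ± 0.173 CPM in Tln2-null hearts (1.17 ± 0.30 SE, adjusted p 0.375).

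The fibrillin microfibril and latent TGF-beta genes had 15 of 16 fold changes below 0, 8 of them at an unadjusted p under 0.05 (median -0.35). Without the 4 Y-read females 12 of 16 were below 0, 3 of them at such a p (median -0.23). Lox, the collagen and elastin cross-linking enzyme, averaged 8.61 ± 3.99 CPM in knockout hearts and 18.7 ± 9.73 CPM in Tln2-null hearts (-1.11 ± 0.27 SE, adjusted p 0.375). Mfap4, a microfibril-associated protein, averaged 26.7 ± 16.4 CPM in knockout hearts and 63.2 ± 38.6 CPM in Tln2-null hearts (-1.25 ± 0.34 SE, adjusted p 0.443). Tgfb3, which encodes a TGF-beta ligand, averaged 25.8 ± 5.62 CPM in knockout hearts and 35.3 ± 6.80 CPM in Tln2-null hearts (-0.45 ± 0.14 SE, adjusted p 0.664). Lox is also among the activated fibroblast markers.

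Among the other substrates and cofactors, 10 of 11 fold changes were below 0, 5 of them at an unadjusted p under 0.05 (median -0.25); without the 4 Y-read females 7 of 11 were below 0, 2 of them at such a p. Fbln1, whose product fibulin-1 is a cofactor of ADAMTS1, averaged 87.9 ± 28.2 CPM in knockout hearts and 147.9 ± 44.0 CPM in Tln2-null hearts (-0.77 ± 0.19 SE, adjusted p 0.375). Comp, the named substrate of ADAMTS12 and itself an activated fibroblast marker, ranged from 2.65 to 28.2 CPM in knockout hearts and from 1.91 to 91.0 CPM in Tln2-null hearts, and the collagen-binding proteoglycan gene Fmod from 0.771 to 16.5 CPM in knockout hearts and from 1.98 to 54.0 CPM in Tln2-null hearts. Both spanned wide, overlapping ranges, with an adjusted p of 0.755 each. Of the activators, inhibitors and clearance genes, 9 of 12 tested had a fold change below 0, 3 of them at an unadjusted p under 0.05 (median -0.12), and 0 of them at such a p without the 4 females. The metalloprotease inhibitor Timp1 averaged 5.10 ± 1.87 CPM in knockout hearts and 8.35 ± 2.73 CPM in Tln2-null hearts (-0.70 ± 0.23 SE, adjusted p 0.755). Lrp1, the endocytic receptor that takes up ADAMTS4 and ADAMTS5, averaged 176.5 ± 47.4 CPM in knockout hearts and 223.7 ± 35.7 CPM in Tln2-null hearts (-0.35 ± 0.14 SE, adjusted p 0.912), and Timp2 148.3 ± 22.7 CPM in knockout hearts and 174.0 ± 29.0 CPM in Tln2-null hearts (-0.23 ± 0.11 SE, adjusted p 0.935).

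The rest of the family split evenly: of 15 other ADAMTS and ADAMTS-like genes, among them Papln, whose symbol has no Adamts in it, 12 were tested, 6 with a fold change above and 6 below 0 (median -0.04). The ADAMTS-like gene Adamtsl3 averaged 14.3 ± 2.68 CPM in knockout hearts and 10.9 ± 1.28 CPM in Tln2-null hearts (0.40 ± 0.11 SE, unadjusted p 0.00171, adjusted p 0.462). Adamtsl1 averaged 2.80 ± 0.901 CPM in knockout hearts and 3.68 ± 0.933 CPM in Tln2-null hearts (-0.40 ± 0.18 SE, adjusted p 0.935), and Adamtsl5 140.7 ± 11.7 CPM in knockout hearts and 154.6 ± 18.2 CPM in Tln2-null hearts (-0.14 ± 0.07 SE, adjusted p 0.935). Adamts13, Adamts16 and Adamts18 had 2, 3 and 4 counts over all libraries and were not tested.

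Between the sexes, 0 of 10 members passed at an adjusted p under 0.05, a threshold that 0.0871% of all genes met (12 genes). At an unadjusted p under 0.05 Adamtsl2 alone was taken (1 of 10 members), against 3.69% of all genes, or 2.04% with a fold change below 0. Adamtsl2 averaged 25.6 ± 10.6 CPM in males and 40.0 ± 14.1 CPM in females (log2 fold change -0.66 ± 0.22 SE, unadjusted p 0.00842, adjusted p 1), with 7 of 8 males below the female mean. Adamts2 averaged 36.2 ± 9.42 CPM in males and 45.4 ± 14.9 CPM in females (-0.34 ± 0.17 SE, unadjusted p 0.0596, adjusted p 1). For the other 8 members the unadjusted p was 0.15 or higher. By sex, 7 of 10 members had a fold change below 0, against 6834 of the 13775 genes tested. So had all 9 activated fibroblast markers (median -0.55, 1 at an unadjusted p under 0.05) and 5 of 7 resting ones (1 at such a p). Of the fibrillin microfibril and latent TGF-beta genes 13 of 16 were below 0 (2 at such a p). The part of these genes in the members' values was not tested. The members' sex fold changes moved with the libraries kept. Without the 4 Y-read females they were -0.42 for Adamts9, -0.31 for Adamts10 and -0.68 for Adamtsl2, against -0.19, -0.18 and -0.66 with all hearts. Without both replicate 8 libraries Adamts2 was at -0.39 (unadjusted p 0.0486, adjusted p 0.999).

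No member's genotype difference depended on sex at an adjusted p under 0.05 (0 of 10), as for all genes (0%; 588 genes, 4.27%, at an unadjusted p under 0.05; DESeq2 and limma-voom also called 0). The single member with an unadjusted p under 0.05 was Adamts1 (1 of 10), where the sexes went opposite ways. In knockout males Adamts1 was at 92.7, 61.2, 66.5 and 84.8 CPM, against 44.99, 46.0, 69.4 and 68.7 CPM in Tln2-null males. In knockout females it was at 69.6, 54.3, 44.4 and 61.1 CPM, against 57.4, 59.2, 104.1 and 74.4 CPM in Tln2-null females. All 4 knockout males lay above the mean of Tln2-null males (57.3 CPM), and all 4 knockout females below the mean of Tln2-null females (73.8 CPM). The difference between the sexes was 0.78 ± 0.29 SE on the log2 scale (unadjusted p 0.0154, adjusted p 0.98). Leaving out the 4 females with Y-linked reads, which leaves knockout replicate 2 as the 1 knockout female, brought it to 0.59. In that setting the difference was -1.01 for Adamts2, against -0.18 with all hearts, and -0.79 for Adamtsl4. Without knockout replicate 2 the difference was 0.88 for Adamts1 (unadjusted p 0.00915) and 3.22 for Adamts4 (unadjusted p 0.0115). It was 0.59 for Adamts9 (unadjusted p 0.0101) and 1.16 for Adamts12 (unadjusted p 0.0163), each of these at an adjusted p of 0.866. Adamtsl4 had a difference of -0.52 ± 0.26 SE (unadjusted p 0.0574, adjusted p 0.98); it averaged 60.9 ± 9.04 CPM in knockout males and 82.7 ± 25.5 CPM in Tln2-null males, and 72.0 ± 8.87 CPM in knockout females and 68.0 ± 12.8 CPM in Tln2-null females. Without Tln2-null replicate 1, the male heart at 119.9 CPM, the difference was -0.29 (unadjusted p 0.164), and the genotype fold change of Adamtsl4 was -0.05. Adamts4 had the largest difference in size, 1.89 ± 1.13 SE (adjusted p 0.98), which came to 3.22 without knockout replicate 2, 0.10 without both replicate 8 libraries and 0.51 without the 4 females.

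**Figure D4:**
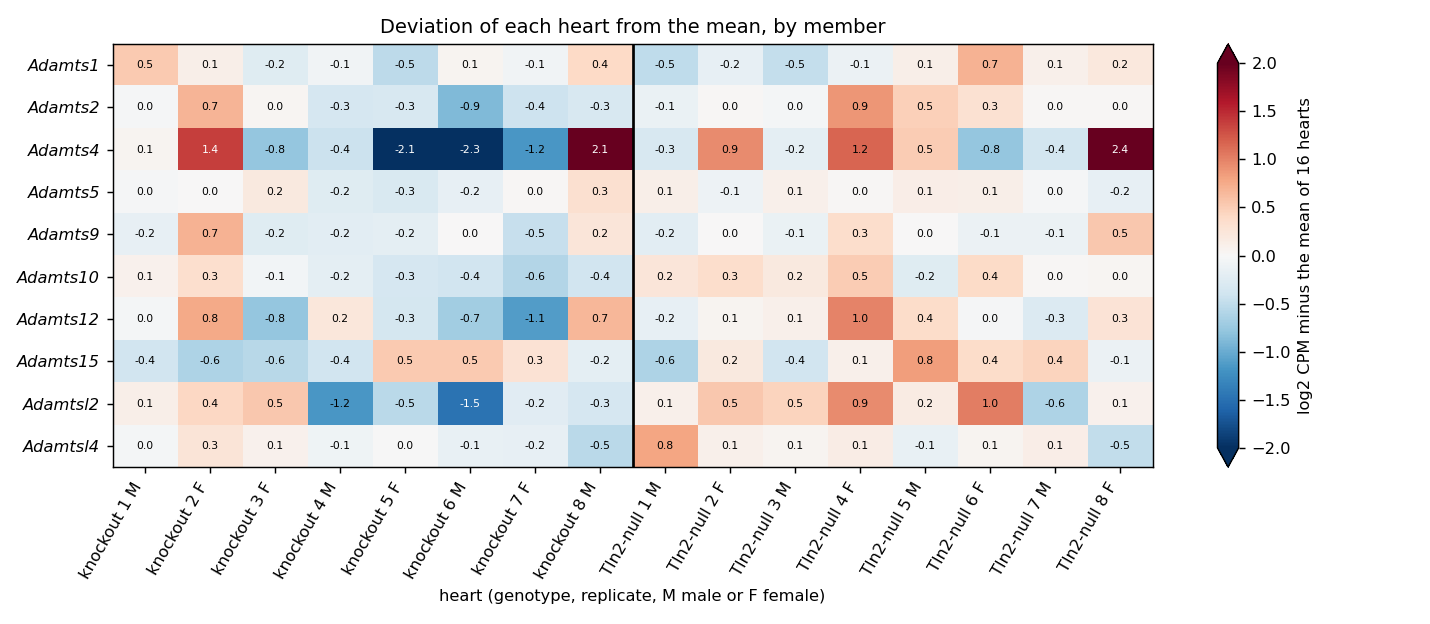
Log2 CPM of each member in each heart minus its mean over 16 hearts, with knockout hearts on the left and the number in each cell giving the deviation. Adamts4 spans the widest range and Adamts5 the narrowest; knockout replicate 2 is high in Adamts2, Adamts4, Adamts9 and Adamts12, and knockout replicate 6 is low in Adamts2, Adamts4 and Adamtsl2.

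The members varied between hearts to very different degrees. The highest heart exceeded the lowest 31.2-fold for Adamts4 and 1.55-fold for Adamts5. The biological coefficient of variation from the edgeR fit was 0.784 for Adamts4, 0.34 for Adamts12, 0.307 for Adamtsl2 and 0.296 for Adamts15, against 0.116 for Adamts5 and a median of 0.122 over all genes tested. Of the 45 pairs of members, 7 were correlated across the 16 hearts at an adjusted p under 0.05, all positively, and all 7 had a positive r within each genotype. Adamts2, Adamts10 and Adamtsl2 formed a set: Adamts2 and Adamtsl2 had r = 0.78 (permutation p 0.00036, adjusted p 0.0112; rho 0.74, permutation p 0.00147), Adamts10 and Adamtsl2 r = 0.72 (permutation p 0.00146, adjusted p 0.0131; rho 0.76, permutation p 0.00087), and Adamts2 and Adamts10 r = 0.72 (permutation p 0.00176, adjusted p 0.0132; rho 0.69, permutation p 0.0037). These are the 3 members with an unadjusted p under 0.05 by genotype, and within genotypes the values were 0.82, 0.57 and 0.85 in knockout hearts and 0.54, 0.69 and 0.23 in Tln2-null hearts. Without the 2 hearts farthest from the median of the first gene of each pair, r was 0.61, 0.74 and 0.59 for these pairs in the same order. The within-genotype values hold both sexes. The part of sex and of the title number in these correlations was not tested.

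Adamts4, Adamts9 and Adamts12 formed the other set. Adamts4 and Adamts12 had r = 0.77 (permutation p 0.00051, adjusted p 0.0112; rho 0.82, permutation p 0.00016), with 0.81 within knockout hearts and 0.58 within Tln2-null hearts and 0.78 without the 2 farthest hearts. Adamts9 and Adamts12 had r = 0.75 (permutation p 0.00097, adjusted p 0.0112; rho 0.72, permutation p 0.00236), with 0.79 within knockout hearts, 0.67 within Tln2-null hearts and 0.80 without the 2 farthest. Adamts4 and Adamts9 had r = 0.74 (permutation p 0.001, adjusted p 0.0112; rho 0.71, permutation p 0.00285), with 0.65, 0.93 and 0.63 in that order. Adamts2 and Adamts12 linked the sets with r = 0.65 (permutation p 0.00594, adjusted p 0.0382), but rho was 0.48 (permutation p 0.0612) and r dropped to 0.45 without the 2 farthest hearts. With the 4 females with Y-linked reads left out, none of the 45 pairs passed, and r was 0.76 for Adamts2 with Adamtsl2 (adjusted p 0.0631), 0.82 for Adamts4 with Adamts12 (adjusted p 0.0517) and 0.60 for Adamts9 with Adamts12 (adjusted p 0.254) over the remaining 12 hearts. Without both replicate 8 libraries 12 pairs passed. The neighbouring genes Adamts1 and Adamts5 had r = 0.24 (adjusted p 0.576), and the most negative pair was Adamts1 with Adamtsl4 (r = -0.47, permutation p 0.0664, adjusted p 0.23; rho -0.41).

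**Figure D5:**
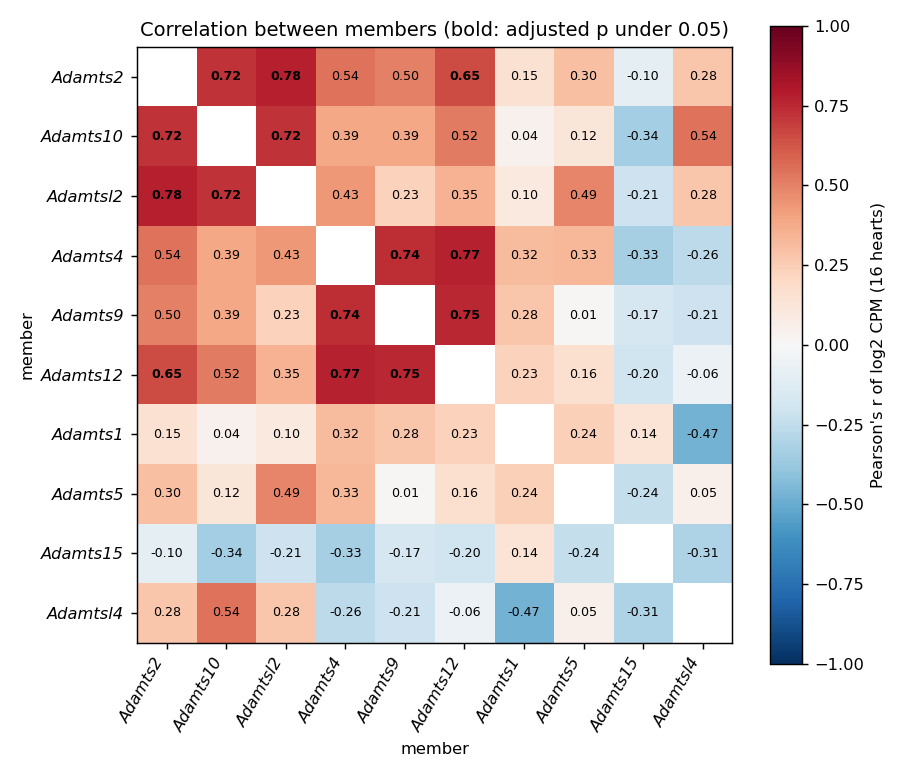
Pearson's r of log2 CPM between members over 16 hearts, with bold numbers at an adjusted p under 0.05. The 7 bold pairs lie in the blocks Adamts2, Adamts10 and Adamtsl2, and Adamts4, Adamts9 and Adamts12, plus the pair Adamts2 with Adamts12, and Adamts15 has a negative r with all other members except Adamts1.

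Across all tested genes with a mean of at least 2 CPM (12009 compared with each such member, 12010 with Adamts4), the genes most like each member over the 16 hearts differed by member; these correlations are descriptions picked as the highest of many. Adamts2 was most like the intermediate filament gene Vim (r = 0.96), S100a11 (0.96) and the fibrillar collagen gene Col5a1 (0.94). Adamtsl2 was most like Igfbp7 (0.87), Mfap4 (0.85) and Bbs12 (0.85), and Adamts10 most like Ccdc157 (0.95), Nlgn2 (0.93) and Glis2 (0.91). Adamts4 was most like Creb3l1, Rflnb and Clmp (0.91 each), Adamts9 most like Tubb2b (0.92), Fam111a (0.88) and the plasminogen activator gene Plat (0.88), and Adamts12 most like the actin-bundling gene Fscn1 (0.93), Tgfb1i1 (0.88) and Col5a3 (0.86). Adamts15 was most like Sumo2 (0.94) and the ribosomal protein genes Rpl5 (0.91) and Rpl12 (0.90). Because of this likeness Adamts15 was then compared with the summed level of 80 ribosomal protein genes. The correlation was r = 0.73 (rho 0.74), with 0.69 within knockout hearts and 0.74 within Tln2-null hearts. It was 0.58 without the 2 farthest hearts and 0.78 without the 4 Y-read females. The sum was picked from the likeness in these same 16 hearts, so it is a description and no p-value is given for it. Adamtsl4 was most like Ip6k1 (0.95), Cnnm3 (0.95) and Brpf1 (0.92), Adamts5 most like the macrophage lysozyme gene Lyz2 (0.83), Eps15 (0.77) and Mitd1 (0.75), and Adamts1 most like Zfp111 (0.84), Zfp469 (0.83) and Zfand2a (0.76).

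The annotated spans of Adamts9 and Adamts2, introns included, overlap genes on the opposite strand. Adamts9 shares 3164 bases with the antisense gene 9530026P05Rik (440 counts over all libraries) and also overlaps A730049H05Rik and Gm15737, and Adamts2 overlaps Gm12198, Gm12199 and Gm12200. The library kit was directional, but the sources used here do not say whether the counting used strand. Whether exons overlap was not checked, so reads that these genes may share with their partners were not assessed.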

How the data were processed

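Left ventricle RNA of 16 mice was measured. Per the labels' protocols, tissue was homogenised in TRIzol, RNA was column-purified, and a directional kit was used for the libraries. The submitters' processing notes name DRAGEN, DESeq2 and mm10, without roles or versions; the sources used here give no aligner settings or annotation. The deposited table of whole counts per gene symbol (24982 entries, 5760 at 0 throughout, 26 with a symbol turned into a date) was analysed. The deposited normalized table (signal, 16405 entries) is those counts divided by 1 size factor per library (0.678 to 1.21); 100% of its values came out whole within 0.001. No pair of libraries was a duplicate (120 pairs, at most 1.47% of counts equal).

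Groups and sexes come from the labels; replicate numbers follow record order and pair nothing. Nothing says whether mice were littermates, so p-values measure the spread between these mice. The members and lists were chosen with earlier results of these data known. Named genes are all members, up to 3 genes of lowest unadjusted genotype p per list, and the 3 genes most like each member. The zinc signature's wider pattern, the relations to summed levels, and the list counts with libraries left out were added after the data were seen.

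The counts entered edgeR 4.0.16 (R 4.3.3): filterByExpr by genotype and sex (13775 genes), TMM scaling, and a quasi-likelihood F test with genotype and sex as terms (knockout over Tln2-null, males over females), or with 1 mean per genotype and sex for the difference of the genotype fold change between sexes. p-values were adjusted by Benjamini-Hochberg over all genes tested and called under 0.05. The SE, worked back from F and the size of the log2 fold change, is approximate, and intervals called 95% are 1.96 SE wide on each side. That normal quantile makes them narrower than the F test implies. For the difference between sexes of Adamtsl4 the interval was -1.02 to -0.02, although the F test gave an unadjusted p of 0.0574. CPM use TMM-scaled library sizes, and are divided by merged exon length (GENCODE M21, GRCm38) only where stated. Correlations of log2 CPM (prior count 0.5) were tested two-sided with 100000 permutations and adjusted over 45 pairs. The permutations shuffled all hearts together, whatever their genotype or sex, so differences between these groups can enter r and p. The fit was run on simulated counts with known changes of 1 or 2 on the log2 scale, in genes averaging at least 2 CPM. That run does not show whether changes as small as the members' genotype differences would be found. Alternatives were DESeq2's size factors, DESeq2 1.42.0, limma-voom (limma 3.58.1), limma on log2 of the normalized signal plus 1, no filter, a stricter filter (1 CPM in 8 libraries), the title number as a covariate, no sex term, a prior count of 2, and libraries left out. Intervals and count floors cover counting error or the spread of these hearts only. Not every overlap of a member with another gene is reported here.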

Additional observations from a re-analysis of the deposited data

Results flagged for a closer look

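In 4 of 20 groups of 8 hearts (10 members in each genotype), the highest heart was farther from the next than Dixon's 95% critical value for 8 samples, 0.526 of the range, allows. Chance would flag about 1 group in 20 if values were normally distributed and groups independent. The values were CPM without a log transformation and some members were correlated, so the 4 flags cannot be read against that rate. Adamts2 was at 62.6 CPM in knockout replicate 2, which also had the highest activated fibroblast marker sum of the knockout hearts (577.8 CPM). Adamts4 was at 4.24 CPM in Tln2-null replicate 8, the library with Arntl at 28.4 CPM. Adamts12 was at 5.95 CPM in Tln2-null replicate 4, a female with Y-linked reads at 1.51% of the male mean. Adamtsl4 was at 119.9 CPM in Tln2-null replicate 1, which had the lowest activated fibroblast marker sum of the Tln2-null hearts (198.9 CPM).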

How the results depend on the processing

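No member passed an adjusted p under 0.05 in any comparison under any setting run. The number of genes called by genotype, 0 in edgeR, was 1 with no filter on low counts, 17 with DESeq2, 11 with limma-voom and 5 without both replicate 8 libraries; it ranged from 0 to 7 as single libraries were left out (7 without knockout replicate 8, 3 without Tln2-null replicate 1, 1 without Tln2-null replicate 4). By sex the 12 calls became 21 with DESeq2. The 7 correlated pairs became 0 without the females with Y-linked reads and 12 without both replicate 8 libraries, and ranged from 5 (without Tln2-null replicate 4) to 10 (without knockout replicate 8) over single libraries left out. Adamts10 and Adamtsl2 kept an unadjusted genotype p under 0.05 under every setting except without the females with Y-linked reads. There the log2 genotype fold change was -0.18 for Adamts10, -0.51 for Adamtsl2 and -0.15 for Adamts2, and 6 of 10 members, not 9, were below 0. This setting leaves knockout replicate 2 as the 1 knockout female, assumed to vary like the other groups. That heart and the Y-linked reads cannot be told apart in it. The log2 genotype fold change there turned to 0.42 for Adamts4, 0.21 for Adamts9 and 0.26 for Adamts12, and the sex fold change of Adamts1 to -0.28. The difference between sexes turned to -0.43 for Adamts9, -0.33 for Adamts10, -0.57 for Adamts12 and 0.53 for Adamts15. It was -1.01 for Adamts2 and -0.79 for Adamtsl4.

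Small values changed sign elsewhere: by genotype Adamts1 (-0.01 with the title number as a covariate); by sex Adamtsl4 (-0.05 in limma-voom), Adamts12 (0.04 on the normalized signal) and Adamts5 (-0.03 without both replicate 8 libraries); and in the difference between sexes Adamts15 (0.13 in limma-voom, 0.05 on the normalized signal, 0.01 without both replicate 8 libraries) and Adamtsl2 (0.08 with the title number). With single libraries left out, values that crossed 0 ranged from -0.05 to 0.15 (Adamts1) and -0.19 to 0.02 (Adamts9) by genotype; from -0.06 to 0.15 (Adamts1), -0.1 to 0.09 (Adamtsl4) and -0.17 to 0.14 (Adamts12) by sex; and from -0.4 to 0.1 (Adamts2), -0.43 to 0.12 (Adamtsl2) and -0.37 to 0.2 (Adamts15) in the difference between sexes. The causes were not tested. Adamts4 has no value under the stricter filter, which it did not pass. No paired analysis was possible because the labels do not pair the mice. Depth limits Adamts4 most: 2 to 60 counts per library.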
